A study of Danio rerio with 9 samples.

Results

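The genes described here encode the zebrafish heat-shock proteins and their J-domain cochaperones. They are the 92 rows, of 32020 in the count table, whose gene name starts with *hsp70*, *hsp90*, *hspa*, *hspb*, *hspd*, *hspe*, *hsph*, *hsf* or *dnaja*, *dnajb* or *dnajc*. The rule uses names only and no measured value. It takes in 5 heat-inducible HSP70 genes, 10 other HSP70 genes, 4 HSP110 genes, 4 HSP90 genes, the mitochondrial chaperonin pair, 9 small heat-shock proteins, 4 heat-shock factors, 3 binding partners and 51 J-domain genes. The low-count filter of edgeR kept 82 of them, and these were tested. Among the 10 that did not pass (*hsf4*, *hsf5*, *hspa12a.1*, *hspa12a.2*, *hspb2*, *hspb3*, *hspb7*, *hspb15*, *dnajc22* and *dnajc5b*), *hsf4* and *dnajc5b* had no count in any sample.

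HSP70 chaperones bind unfolded stretches of other proteins and release them in cycles that are driven by ATP. J-domain proteins (DNAJ) start the cycle by stimulating the ATPase, and HSP110 proteins close it as nucleotide exchange factors. HSP90 acts later, on kinases, hormone receptors and other near-native clients. When proteins unfold on heating, the transcription factor Hsf1 trimerises and switches on inducible members such as *hsp70l*, whereas the constitutive members fold newly made proteins in the cytosol, the endoplasmic reticulum (ER) and mitochondria at normal temperature.

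RNA was sequenced from tailbuds of embryos that carried tg(*hsp70l:tbx16*) or tg(*hsp70l:msgn1*) and of wild-type embryos, with 3 samples of each genotype and 10 tailbuds pooled in each sample. All embryos, wild type included, received a heat shock of 30 min at an early somite stage and recovered for 3 h before dissection, so the table holds no unheated sample and the induction by heat itself cannot be read from it. The sample labels give 28 degrees for the heat shock, whereas the study's methods give a higher temperature. Both transgenes are driven by the *hsp70l* heat-shock promoter, in all cells that respond to heat. Carriers of tg(*hsp70l:tbx16*) came from homozygous fish outcrossed to wild type. They were thus from other crosses than the genotyped tg(*hsp70l:msgn1*) carriers, whose non-transgenic tailbuds were collected as wild type. Transgene and parentage therefore cannot be told apart in the *tbx16* comparison.

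The samples held between 30750552 and 49654769 counts, of which the 92 genes took between 1.99% and 2.96%. Expression is given as CPM, a gene's counts per 1e+06 counts of the library after scaling by edgeR's TMM factors, and is not corrected for gene length. The targeted genes followed the labels: *tbx16* was at 835, 976 and 564 CPM in tg(*hsp70l:tbx16*) against 332, 364 and 372 CPM in wild type, and *msgn1* was at 1908, 1427 and 1957 CPM in tg(*hsp70l:msgn1*) against 732, 889 and 701 CPM in wild type. All 12 tailbud markers examined were detected, and their summed level lay between 2002 and 2512 CPM in tg(*hsp70l:tbx16*), between 4531 and 5078 CPM in tg(*hsp70l:msgn1*) and between 3716 and 4169 CPM in wild type. The 12 include *tbx16* and *msgn1* themselves, so each sum takes in the overexpressed gene of its line. In tg(*hsp70l:msgn1*) over wild type, 3 of the 12 log2 fold changes were positive and their median was -0.199. In tg(*hsp70l:tbx16*) over wild type, 1 of the 12 was positive and the median was -1.715. In bulk tissue, fewer cells of a type and less RNA per cell cannot be told apart. A gene was called where its adjusted p in edgeR's quasi-likelihood test over 19914 genes was under 0.05.

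Among the heat-inducible HSP70 genes, the largest differences lay between replicates of the same genotype. *hsp70.3*, an inducible cytosolic HSP70, was at 16.3, 13.9 and 5.11 CPM in tg(*hsp70l:tbx16*) replicates 1, 2 and 3, at 5.16, 6.74 and 77.9 CPM in tg(*hsp70l:msgn1*) and at 4.95, 6.16 and 49.2 CPM in wild type. Replicate 3 was thus far above the other two in tg(*hsp70l:msgn1*) and in wild type, and was the lowest in tg(*hsp70l:tbx16*). *hsp70.1* was at 5.66, 5.34 and 1.91 CPM in tg(*hsp70l:tbx16*), at 2.06, 1.57 and 20.7 CPM in tg(*hsp70l:msgn1*) and at 2.03, 3.53 and 12.6 CPM in wild type. *hsp70.2* was at 5.92, 6.31 and 2.18 CPM in tg(*hsp70l:tbx16*), at 5.60, 3.78 and 22.8 CPM in tg(*hsp70l:msgn1*) and at 2.07, 2.63 and 14.1 CPM in wild type. In all 3 genes, which neighbour each other in the GRCz12tu annotation, replicate 3 was the highest in tg(*hsp70l:msgn1*) and wild type and the lowest in tg(*hsp70l:tbx16*). *hspa1b* was at 1.119, 1.09 and 1.199 CPM in tg(*hsp70l:tbx16*), at 0.927, 1.16 and 3.89 CPM in tg(*hsp70l:msgn1*) and at 0.684, 0.672 and 2.501 CPM in wild type. Closely similar copies of a gene can share reads. The sequences of these genes were not compared, and the way the counting split shared reads is not given in the sources used here.

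**Figure D1:**
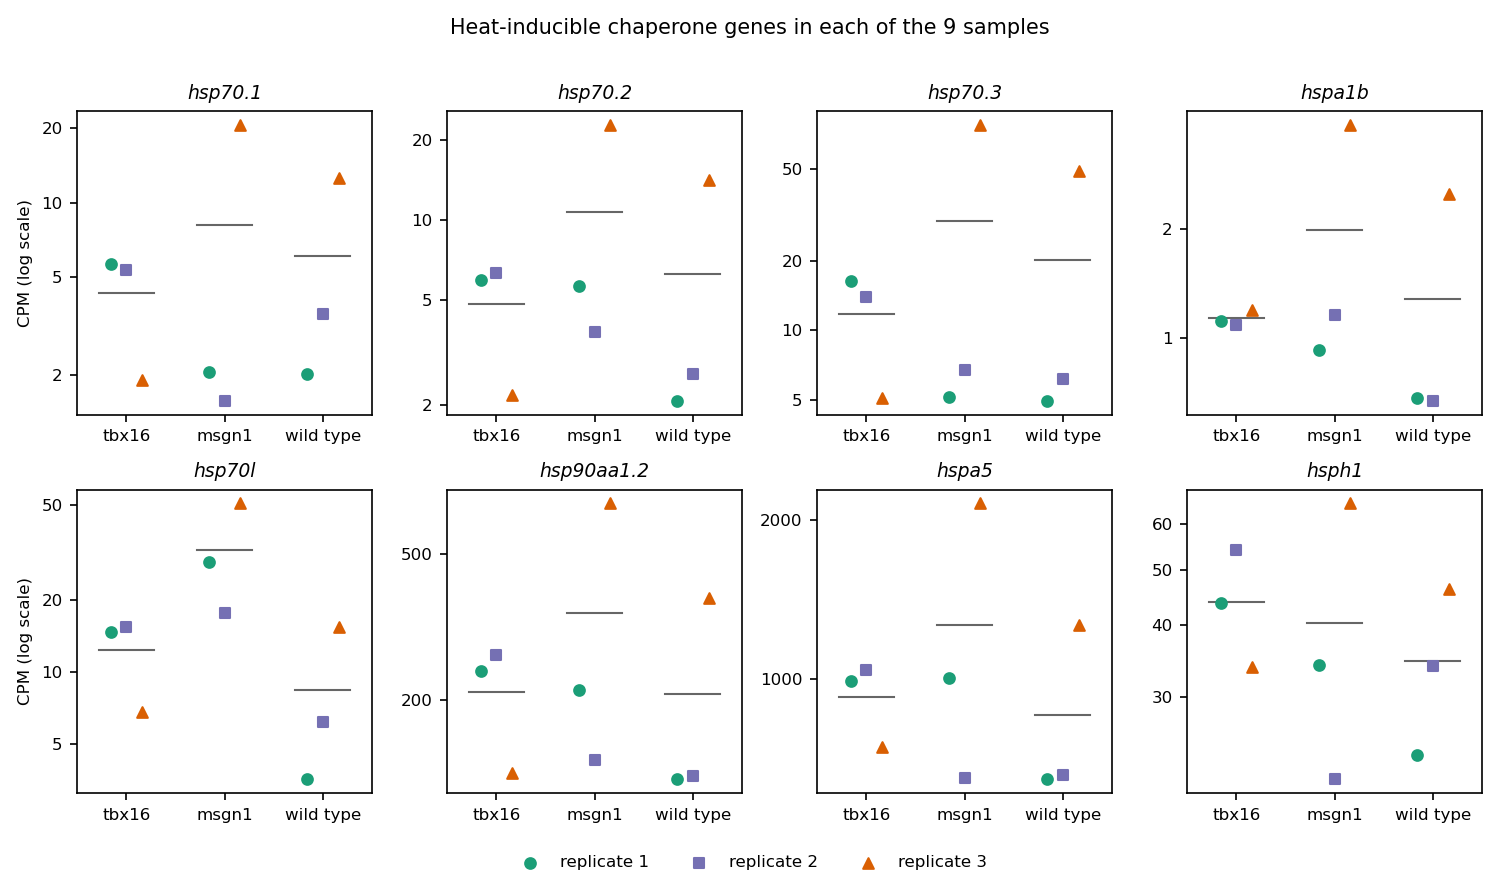
CPM (log axis) of 8 heat-inducible or stress-linked chaperone genes in tailbuds of the transgenic lines (tbx16, msgn1) and of wild type, with 1 point per sample, shaped and coloured by replicate number, and a line at the arithmetic mean of 3 samples. Replicate 3 is the highest in tg(hsp70l:msgn1) and in wild type in all 8 panels, and for hsp70.3 it is at 77.9 and 49.2 CPM. Of the 82 genes tested, 31 had this pattern, and the panels show a choice of these.

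The same replicates stood out in genes of other chaperone families. *hsp90aa1.2*, a cytosolic HSP90, was at 239, 265 and 127 CPM in tg(*hsp70l:tbx16*), at 213, 137 and 684 CPM in tg(*hsp70l:msgn1*) and at 122, 124 and 378 CPM in wild type. *hspa5*, which encodes BiP, the HSP70 of the ER, was at 991, 1043 and 746 CPM in tg(*hsp70l:tbx16*), at 1004, 652 and 2150 CPM in tg(*hsp70l:msgn1*) and at 647, 661 and 1265 CPM in wild type. *hsph1*, an HSP110 exchange factor, was at 43.7, 54.1 and 33.8 CPM in tg(*hsp70l:tbx16*), at 34.1, 21.5 and 65.2 CPM in tg(*hsp70l:msgn1*) and at 23.8, 34.0 and 46.2 CPM in wild type. In each of these genes replicate 3 was the highest of its genotype in tg(*hsp70l:msgn1*) and wild type and the lowest in tg(*hsp70l:tbx16*). Of the 82 genes tested, 31 (37.8%) had replicate 3 as the highest in both tg(*hsp70l:msgn1*) and wild type, whereas 3207 of all 19914 genes tested (16.1%) did so. Among the 9 members that were assigned to the ER lumen here, 7 had this pattern. This grouping by replicate was made after the values were seen, and it is a description with no test.

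The spread between replicates was accordingly uneven across the families. The SD of log2(CPM + 0.5) within genotypes was 1.66 for *hsp70.3*, 1.36 for *hsp70.1*, 1.17 for *hsp70.2*, 0.81 for *hsp70l* and 0.68 for *hspa1b*, against a median of 0.23 over all genes tested. Each of these 5 genes lay above the 95th percentile of all genes, as did *hspa8b*, *hspa5*, *hsph1*, *hspa4l* and *hsp90aa1.2*, which made 10 of 82 members (12.2%). The J-domain genes had a median SD of 0.19, and none of the 49 tested was above that percentile. *hspb1*, a small heat-shock protein that is itself heat-inducible in vertebrates, had an SD of 0.18 and was at 2284, 2751 and 2405 CPM in tg(*hsp70l:tbx16*), at 2482, 2791 and 2519 CPM in tg(*hsp70l:msgn1*) and at 2363, 2370 and 3260 CPM in wild type. It therefore did not share the excess of tg(*hsp70l:msgn1*) replicate 3.

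**Figure D2:**
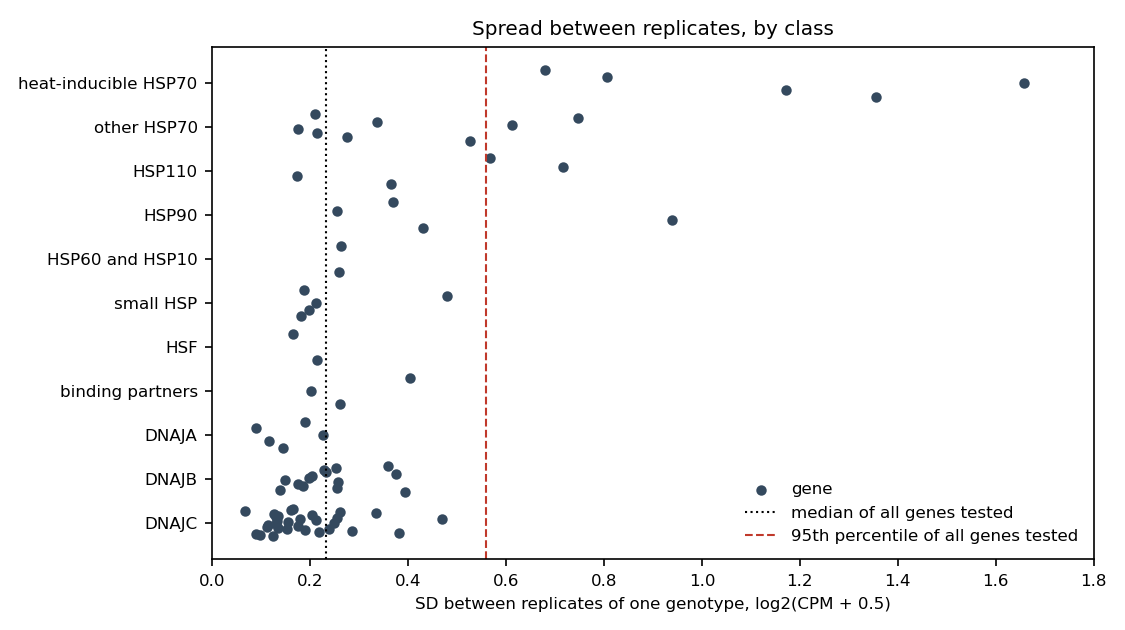
SD between replicates of the same genotype on the log2(CPM + 0.5) scale (x axis) for the 82 tested genes by class (y axis), with 1 point per gene, the median of all genes tested (dotted, 0.23) and their 95th percentile (dashed, 0.56). The 5 heat-inducible HSP70 genes lie beyond the dashed line, and no J-domain gene does.

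In tg(*hsp70l:msgn1*) and wild type, the replicates with the most HSP70 RNA had the lowest sums of epidermis markers, most of which came from keratins. The 5 heat-inducible HSP70 genes summed to 43.8, 42.1 and 17.2 CPM in tg(*hsp70l:tbx16*), to 42.5, 31.0 and 176.1 CPM in tg(*hsp70l:msgn1*) and to 13.3, 19.2 and 93.9 CPM in wild type. The 8 epidermis markers, all of them detected, summed to 4522, 8042 and 5612 CPM in tg(*hsp70l:tbx16*), to 10460, 5719 and 2860 CPM in tg(*hsp70l:msgn1*) and to 6091, 10340 and 2735 CPM in wild type. The keratin *krt4* alone was at 2555, 4515 and 2902 CPM in tg(*hsp70l:tbx16*), at 5801, 3285 and 1647 CPM in tg(*hsp70l:msgn1*) and at 3241, 5448 and 1418 CPM in wild type. Not all markers of the list went this way: *epcam* was highest in replicate 3, with 153, 103 and 211 CPM in tg(*hsp70l:msgn1*) and 137, 174 and 188 CPM in wild type, and *tp63* was highest in replicate 3 of wild type, with 147, 151 and 157 CPM. Whether tissue composition had a part in the HSP70 values was not tested.

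None of the 5 heat-inducible HSP70 genes was called in any of the 3 comparisons. *hsp70l*, whose promoter drives both transgenes, was at 14.8, 15.4 and 6.84 CPM in tg(*hsp70l:tbx16*), at 28.8, 17.8 and 50.8 CPM in tg(*hsp70l:msgn1*) and at 3.56, 6.19 and 15.5 CPM in wild type. All tg(*hsp70l:msgn1*) values were above all wild-type and all tg(*hsp70l:tbx16*) values, while tg(*hsp70l:tbx16*) and wild type overlapped. The log2 fold change of tg(*hsp70l:msgn1*) over wild type was 1.95 (SE 0.55, adjusted p = 0.169), the adjusted p ranging between 0.0554 and 0.461 over the alternatives. That of tg(*hsp70l:tbx16*) over wild type was 0.55 (SE 0.54, adjusted p = 0.469), and that of tg(*hsp70l:tbx16*) over tg(*hsp70l:msgn1*) was -1.39 (SE 0.54, adjusted p = 0.0637). The last comparison passed the threshold in 4 of 20 alternatives, with an adjusted p down to 0.0266. The main fit did not pair samples, although wild-type tailbuds came from non-transgenic embryos of the tg(*hsp70l:msgn1*) crosses. The replicate block matched samples by number only, and with it tg(*hsp70l:msgn1*) over wild type did not pass either. Whether the transgenes carry transcribed *hsp70l* sequence is not given in the sources used here, so reads of the transgenes and of the endogenous gene cannot be told apart.

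The level of *hsp70l* was also set against that of the other inducible genes. The ratio of *hsp70l* to the sum of *hsp70.1*, *hsp70.2* and *hsp70.3* was 0.529, 0.604 and 0.744 in tg(*hsp70l:tbx16*), 2.25, 1.47 and 0.419 in tg(*hsp70l:msgn1*) and 0.393, 0.502 and 0.204 in wild type. All tg(*hsp70l:tbx16*) values were above all wild-type values, as were replicates 1 and 2 of tg(*hsp70l:msgn1*), but its replicate 3 lay within the range of wild type, and the range of tg(*hsp70l:msgn1*) took in that of tg(*hsp70l:tbx16*). The ratio depends on the lengths of the genes, was chosen after the values were seen and was not tested.

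**Figure D3:**
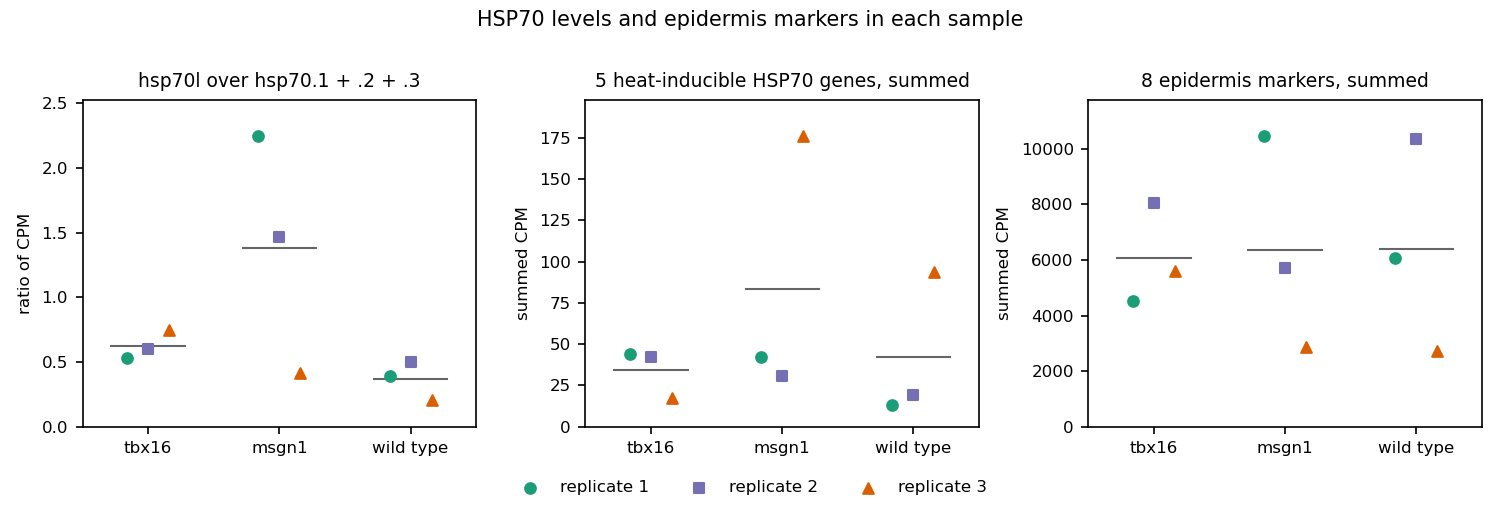
Ratio of hsp70l to the summed CPM of hsp70.1, hsp70.2 and hsp70.3 (left), summed CPM of the 5 heat-inducible HSP70 genes (middle) and summed CPM of 8 epidermis markers (right) in the 9 samples, with points by replicate number and a line at the mean of 3 samples. Replicate 3 of tg(hsp70l:msgn1) and of wild type has the highest HSP70 sum of its genotype (176.1 and 93.9 CPM) and the lowest epidermis sum (2860 and 2735 CPM).

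Leaving out replicate 3 of every genotype, an alternative chosen after seeing the data, changed the picture for some of the inducible genes in tg(*hsp70l:tbx16*). The choice was made with the values of these same genes known. The adjusted p-values with replicates 1 and 2 only therefore describe that fit and cannot be read as tests. With replicates 1 and 2 only, *hsp70.3* was higher in tg(*hsp70l:tbx16*) than in wild type by a log2 fold change of 1.44 (adjusted p = 0.00522), against -0.77 (SE 1.09, adjusted p = 0.629) with all replicates. *hsp70.2* was at 1.38 (adjusted p = 0.0149) in place of -0.38 (SE 0.82, adjusted p = 0.758). *hsp70l* passed the threshold as well, at 1.64 (adjusted p = 0.0111), as did *hsp90aa1.2* at 1.04 (adjusted p = 0.0135) and *hspa8b* at 1.59 (adjusted p = 0.0107). The inducible genes *hsp70.1* and *hspa1b* did not pass it against wild type. Their adjusted p was at least 0.0715 and 0.286 over all alternatives. Among all genes, 2100 of 19999 tested were called higher in this fit. Against tg(*hsp70l:msgn1*), *hsp70.1* was then higher in tg(*hsp70l:tbx16*) by 1.60 (adjusted p = 0.0148) and *hsp70.3* by 1.34 (adjusted p = 0.00647), whereas with all replicates their log2 fold changes were -0.92 (adjusted p = 0.474) and -1.35 (adjusted p = 0.356). No other inducible HSP70 gene passed the threshold between the lines with replicates 1 and 2 only. Over all alternatives the adjusted p of the values named above, *hspa8b* aside, reached between 0.838 and 1 at its highest. Thus *hsp70.2* and *hsp70.3* against wild type, and *hsp70.1* and *hsp70.3* against tg(*hsp70l:msgn1*), changed direction with the replicates used. Against wild type, *hsp70.1*, *hsp70.2*, *hsp70.3* and *hspa1b* also changed sign without wild-type replicate 3 alone and with the replicate block. Between the lines, *hsp70.1* and *hsp70.3* did so without tg(*hsp70l:msgn1*) replicate 3 alone and with the block. None passed the threshold in these fits. For *hsp70l* and *hspa8b* the log2 fold change of tg(*hsp70l:tbx16*) over wild type was positive with all replicates as well, at 0.55 and 0.68, and did not pass the threshold (adjusted p = 0.469 and 0.395).

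The 2 heat-shock factors tested did not pass the threshold in any comparison when all samples were fitted. *hsf1*, the main activator of the heat-shock response, was at 42.1, 34.2 and 43.3 CPM in tg(*hsp70l:tbx16*), at 32.9, 42.3 and 50.1 CPM in tg(*hsp70l:msgn1*) and at 48.5, 47.7 and 54.6 CPM in wild type. The log2 fold change over wild type was -0.33 (SE 0.16, adjusted p = 0.137) in tg(*hsp70l:tbx16*), where the groups did not overlap and the fit of only the groups compared passed the threshold (-0.35, adjusted p = 0.0447), and -0.27 (SE 0.16, adjusted p = 0.474) in tg(*hsp70l:msgn1*), where they did. *hsf2* lay between 31.1 and 38.3 CPM in tg(*hsp70l:tbx16*), between 29.9 and 38.7 CPM in tg(*hsp70l:msgn1*) and between 28.7 and 32.7 CPM in wild type.

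In tg(*hsp70l:tbx16*) against wild type, 5 of the 82 genes rose (6.1%) and 16 fell (19.5%), whereas among all genes tested 15% were called higher and 15.7% lower. The median log2 fold change was -0.08 over the 82 genes and 0.03 over all genes. All 5 that rose were J-domain genes. The 16 that fell comprised 3 HSP70 genes outside the inducible group, 1 HSP110 gene, 1 small heat-shock protein and 11 J-domain genes. Of the 49 J-domain genes tested, 10.2% thus rose and 22.4% fell, against 15% and 15.7% of all genes. At an unadjusted p under 0.05 there were 32 of 82, against 8341 of all 19914 genes tested. Scaling by library size alone, which moved the median of all genes by over 0.1, to 0.18, gave 8 higher and 11 lower. The count that rose varied between 1 and 6 when each sample was left out in turn, and was 1 without tg(*hsp70l:tbx16*) replicate 2, 3 without its replicate 3, 2 without wild-type replicate 1 and 1 without wild-type replicate 2 or 3. The count that fell varied between 9 and 18, with 9 without tg(*hsp70l:tbx16*) replicate 1 and 10 without its replicate 2 or 3 or without wild-type replicate 2. Neural markers were lower in these samples as well (5 of 6 called, summing to between 147 and 222 CPM in tg(*hsp70l:tbx16*) against between 467 and 502 CPM in wild type), as were 9 of 12 tailbud markers, and their part in the chaperone counts was not tested.

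**Figure D4:**
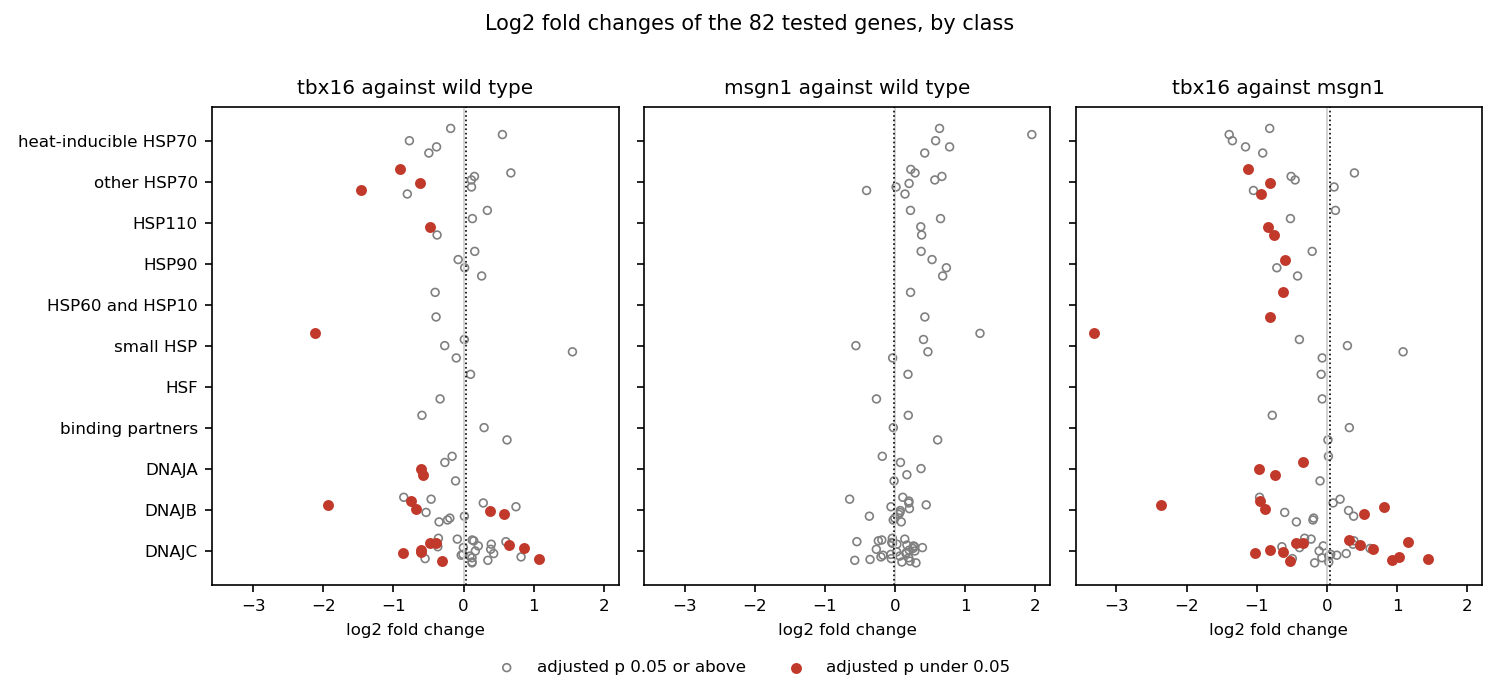
Log2 fold changes (x axis) of the 82 tested genes by class (y axis) for tbx16 set against wild type (left), msgn1 set against wild type (middle) and tbx16 set against msgn1 (right), with filled points at an adjusted p under 0.05 and the median of all genes as a dotted line. In the left panel 21 points are filled, in the middle panel 0, and in the right panel 30.

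The mitochondrial HSP70 fell in tg(*hsp70l:tbx16*). *hspa9*, which encodes mortalin, the motor of protein import into the mitochondrial matrix, was at 253, 288 and 242 CPM in tg(*hsp70l:tbx16*) against 508, 448 and 508 CPM in wild type. The groups did not overlap, and the log2 fold change was -0.90 (SE 0.16, adjusted p = 0.00215). In tg(*hsp70l:msgn1*) it was at 562, 447 and 700 CPM, with a log2 fold change over wild type of 0.22 (SE 0.16, adjusted p = 0.556). *grpel1*, a nucleotide exchange factor of mortalin and a gene of the cochaperone list, fell as well, with 37.0, 44.1 and 40.1 CPM in tg(*hsp70l:tbx16*) against 66.4, 69.6 and 62.9 CPM in wild type (log2 fold change -0.71, SE 0.11, adjusted p = 0.00106). Its paralog *grpel2*, of the same list, did not fall. It was at 49.1, 56.6 and 48.3 CPM in tg(*hsp70l:tbx16*) against 44.6, 43.7 and 43.9 CPM in wild type (0.22, SE 0.10, adjusted p = 0.114).

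The other mitochondrial members were mixed. Of the 11 members that act in mitochondria, 2 fell (*hspa9* and *dnajc11a*, 18.2%), 1 rose (*dnajc28*, 9.09%) and 8 did not pass the test in tg(*hsp70l:tbx16*) against wild type, near the 15.7% lower and 15% higher among all genes. *hspd1*, the HSP60 chaperonin that folds imported proteins, was at 577, 627 and 513 CPM in tg(*hsp70l:tbx16*) against 789, 760 and 702 CPM in wild type, with a log2 fold change of -0.39 (SE 0.18, adjusted p = 0.132). Its cochaperonin *hspe1* was at 249, 279 and 272 CPM in tg(*hsp70l:tbx16*) against 366, 397 and 296 CPM in wild type (-0.40, SE 0.19, adjusted p = 0.131). Neither pair of groups overlapped, but the adjusted p did not pass the threshold, except in 2 of 20 alternatives for each gene, among them the fit of only the groups compared (0.0154 for *hspd1* and 0.0263 for *hspe1*). *dnajc28* was at 3.84, 5.25 and 3.53 CPM in tg(*hsp70l:tbx16*) against 2.62, 2.37 and 1.92 CPM in wild type (0.87, SE 0.24, adjusted p = 0.0202).

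The genes *hspa14*, *dnajc2* and *dnajc21* each fell. *hspa14* and *dnajc2* encode the HSP70 and the J-domain protein of the complex that, in mammals, sits at the exit of the ribosome. *dnajc2* was at 61.0, 68.6 and 69.8 CPM in tg(*hsp70l:tbx16*) against 125, 125 and 114 CPM in wild type, a log2 fold change of -0.87 (SE 0.11, adjusted p = 0.000301). *hspa14* was at 86.0, 94.4 and 101 CPM in tg(*hsp70l:tbx16*) against 156, 149 and 126 CPM in wild type (-0.62, SE 0.14, adjusted p = 0.00736). For both genes all 3 transgenic samples were below all wild-type samples, and the call held under every alternative tried. *dnajc21*, whose yeast counterpart acts in maturation of the large ribosomal subunit, was at 32.2, 36.4 and 28.1 CPM in tg(*hsp70l:tbx16*) against 50.3, 45.4 and 52.0 CPM in wild type (-0.61, SE 0.12, adjusted p = 0.00377).

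Of the cytosolic J-domain proteins described next, which hand clients to HSP70, only *dnajb1b* was called higher. *dnaja2a* was at 223, 245 and 223 CPM in tg(*hsp70l:tbx16*) against 343, 350 and 336 CPM in wild type (log2 fold change -0.57, SE 0.11, adjusted p = 0.00366). Its paralog *dnaja2b* was at 119, 122 and 122 CPM in tg(*hsp70l:tbx16*) against 175, 196 and 181 CPM in wild type (-0.61, SE 0.16, adjusted p = 0.017). In both paralogs the groups were apart by more than the spread within them. *dnajb6b*, of a family known in mammals for holding back aggregation, was at 17.0, 23.0 and 16.6 CPM in tg(*hsp70l:tbx16*) against 30.4, 34.8 and 30.2 CPM in wild type (-0.75, SE 0.17, adjusted p = 0.00904). *dnajb6a*, its paralog, was at 153, 161 and 121 CPM in tg(*hsp70l:tbx16*) against 108, 106 and 143 CPM in wild type, with an adjusted p of 0.227, and is named after its values were seen. *dnajb1b*, the main J-domain partner of inducible HSP70, was at 39.7, 53.9 and 44.3 CPM in tg(*hsp70l:tbx16*) against 34.1, 34.1 and 37.6 CPM in wild type (0.38, SE 0.13, adjusted p = 0.0457). Although its groups did not overlap, this call was lost in 14 of 20 alternatives. Its paralog *dnajb1a*, named after its values were seen, lay the other way and was not called. It was at 6.03, 5.20 and 3.77 CPM in tg(*hsp70l:tbx16*) against 7.91, 6.77 and 7.05 CPM in wild type (-0.53, SE 0.22, adjusted p = 0.0937), and the groups did not overlap.

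Further J-domain genes fell, among them *dnajc5ga* and *dnajc11a*, the last of which encodes a partner of the mitochondrial MICOS complex. The log2 fold change was -0.39 (SE 0.12, adjusted p = 0.0321) for *dnajc5ga* and -0.31 (SE 0.10, adjusted p = 0.0352) for *dnajc11a*. Both calls were lost with library size alone, with the replicate block and without tg(*hsp70l:tbx16*) replicate 1 or 3, among other alternatives. *dnajb2*, enriched in neurons in mammals, was at 4.45, 4.68 and 4.53 CPM in tg(*hsp70l:tbx16*) against 6.72, 7.62 and 7.55 CPM in wild type (log2 fold change -0.68, SE 0.19, adjusted p = 0.0234). *dnajc25* was at 22.5, 23.7 and 19.8 CPM in tg(*hsp70l:tbx16*) against 35.5, 33.4 and 31.9 CPM in wild type (-0.61, SE 0.13, adjusted p = 0.00691). The groups of both genes were apart, but the call of *dnajb2* was lost in 8 of 20 alternatives, among them the omission of any tg(*hsp70l:tbx16*) sample or of wild-type replicate 2 or 3. *dnajc5ab*, a cysteine string protein gene, was at 54.7, 49.7 and 53.3 CPM in tg(*hsp70l:tbx16*) against 67.7, 68.8 and 83.1 CPM in wild type (-0.48, SE 0.15, adjusted p = 0.0352). This call was lost in 10 of 20 alternatives, among them the omission of any 1 sample of either group, with an adjusted p up to 0.203. *dnajb5*, with 11, 13 and 5 counts in tg(*hsp70l:tbx16*) against 27, 15 and 50 counts in wild type, fell by 1.93 on the log2 scale (SE 0.59, adjusted p = 0.0311), and this call was lost in 9 of 19 alternatives.

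Besides *dnajb1b* and *dnajc28*, 3 further J-domain genes rose. *dnajb14*, an ER-membrane J-domain protein, was at 15.9, 19.1 and 15.1 CPM in tg(*hsp70l:tbx16*) against 11.01, 10.1 and 12.5 CPM in wild type (log2 fold change 0.57, SE 0.16, adjusted p = 0.0219). *dnajc4* was at 9.85, 9.82 and 9.44 CPM in tg(*hsp70l:tbx16*) against 6.54, 6.95 and 5.15 CPM in wild type (0.64, SE 0.16, adjusted p = 0.0128). In both genes all transgenic samples exceeded all wild-type samples. *dnajc12*, known in mammals as a cochaperone of the aromatic amino acid hydroxylases, was at 1.43, 2.14 and 2.20 CPM in tg(*hsp70l:tbx16*) against 0.957, 0.905 and 0.866 CPM in wild type (1.08, SE 0.33, adjusted p = 0.0321). The last call was lost in 8 of 20 alternatives.

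**Figure D5:**
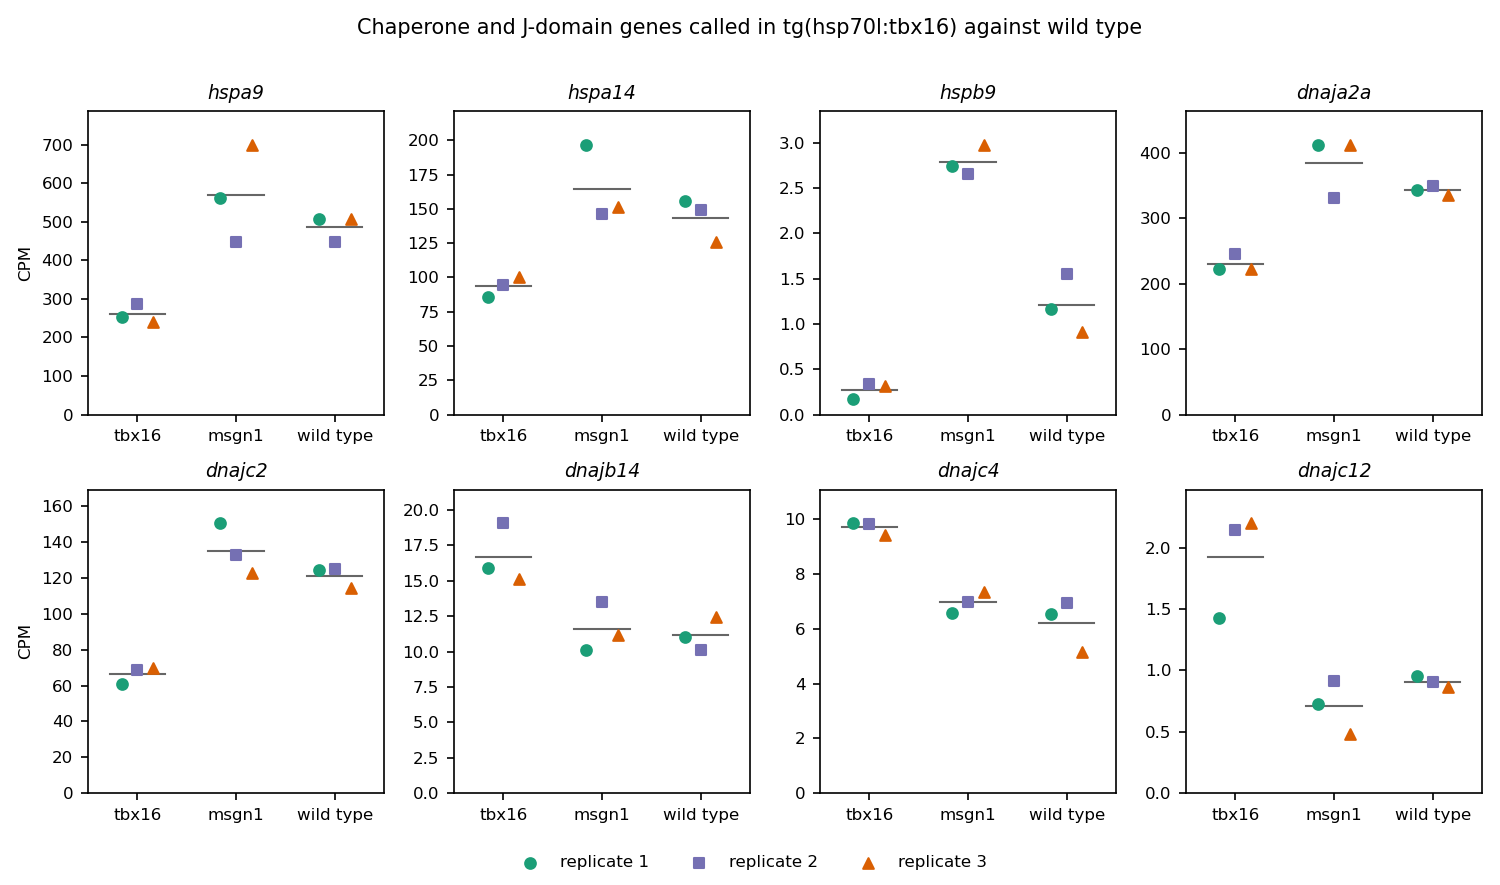
CPM (linear axis starting at 0) of 8 genes called in tg(hsp70l:tbx16) against wild type, in each of the 9 samples, with points by replicate number and a line at the mean of 3 samples. In every panel the 3 tg(hsp70l:tbx16) points lie apart from the 3 wild-type points, below them for hspa9, hspa14, hspb9, dnaja2a and dnajc2 and above them for dnajb14, dnajc4 and dnajc12.

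The small heat-shock protein gene *hspb9* differed between all 3 genotypes in its values, at low counts. It had 8, 19 and 14 counts in tg(*hsp70l:tbx16*), 68, 96 and 98 counts in tg(*hsp70l:msgn1*) and 51, 53 and 38 counts in wild type, which correspond to 0.176, 0.339 and 0.311 CPM, to 2.74, 2.65 and 2.98 CPM, and to 1.16, 1.55 and 0.914 CPM. No pair of genotypes overlapped. It fell in tg(*hsp70l:tbx16*) against wild type by 2.11 on the log2 scale (SE 0.35, adjusted p = 0.00165). Its log2 fold change in tg(*hsp70l:msgn1*) over wild type was 1.21 (SE 0.32, adjusted p = 0.145), which did not pass in edgeR but did in DESeq2 (adjusted p = 0.0349, with a range over the alternatives between 0.0349 and 0.653). The difference between the lines, tg(*hsp70l:tbx16*) over tg(*hsp70l:msgn1*), was -3.32 (SE 0.36, adjusted p = 0.000132).

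Of the other small heat-shock proteins, *hspb1*, *hspb6*, *hspb8* and *hspb11* did not pass the test in any comparison. *hspb8*, the partner of Bag3 in selective autophagy, was at 287, 269 and 225 CPM in tg(*hsp70l:tbx16*), at 305, 192 and 528 CPM in tg(*hsp70l:msgn1*) and at 203, 245 and 327 CPM in wild type, with replicate 3 again the highest in tg(*hsp70l:msgn1*) and wild type. It is named after its values were seen.

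HSP110 and divergent HSP70 members fell where they were called. *hspa4b*, an HSP110 exchange factor, was at 214, 218 and 247 CPM in tg(*hsp70l:tbx16*) against 332, 323 and 292 CPM in wild type (log2 fold change -0.48, SE 0.14, adjusted p = 0.0228). *hspa12b*, a divergent HSP70 known from endothelium in vertebrates, had 25, 43 and 16 counts in tg(*hsp70l:tbx16*) against 49, 50 and 85 counts in wild type and fell by 1.45 on the log2 scale (SE 0.39, adjusted p = 0.0188). The groups of each gene were apart, but the call was lost in 7 of 20 alternatives for *hspa4b* and in 5 for *hspa12b*. The constitutive HSP70 *hspa8* was at 3396, 3452 and 3765 CPM in tg(*hsp70l:tbx16*) against 3211, 3222 and 3092 CPM in wild type, with a log2 fold change of 0.16 (SE 0.23, adjusted p = 0.647).

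No HSP90 gene was called against wild type. *hsp90ab1*, the constitutive cytosolic HSP90, was at 5979, 5689 and 5848 CPM in tg(*hsp70l:tbx16*), at 10760, 6223 and 9591 CPM in tg(*hsp70l:msgn1*) and at 6357, 6620 and 5488 CPM in wild type. *hsp90aa1.1*, an HSP90 that in zebrafish serves myosin folding in muscle, was at 2657, 3236 and 2093 CPM in tg(*hsp70l:tbx16*), at 3635, 2052 and 4982 CPM in tg(*hsp70l:msgn1*) and at 2163, 1964 and 2547 CPM in wild type. *hsp90b1*, the ER member, was at 983, 949 and 775 CPM in tg(*hsp70l:tbx16*), at 1040, 673 and 1417 CPM in tg(*hsp70l:msgn1*) and at 672, 759 and 992 CPM in wild type. In tg(*hsp70l:msgn1*), replicates 1 and 3 were above replicate 2 in all 3 genes. Log2 fold changes over wild type were 0.53 (SE 0.20, adjusted p = 0.284) for *hsp90ab1*, 0.68 (SE 0.29, adjusted p = 0.327) for *hsp90aa1.1* and 0.37 (SE 0.25, adjusted p = 0.532) for *hsp90b1*.

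In tg(*hsp70l:msgn1*) against wild type, 0 of the 82 genes rose and 0 fell in edgeR's quasi-likelihood test, whereas among all genes 0.357% were called higher and 0.497% lower. At an unadjusted p under 0.05 there were 10 of 82, against 2811 of all 19914 genes tested. DESeq2 called 1, *hspb9*. The log2 fold change was positive for 57 of 82 genes, against 9459 of all 19914. Its median was 0.17 against -0.02 over all genes, but with library size alone 36 were positive and the medians were -0.02 and -0.20. Among the 33 heat-shock genes outside the J-domain families, 28 were positive with a median of 0.38 (24 and 0.17 with library size alone). Among the 49 J-domain genes tested, 29 were positive with a median of 0.07 (12 and -0.12 with library size alone). Without tg(*hsp70l:msgn1*) replicate 2, 6 genes passed the threshold as higher, namely *hspa8*, *hspa4b*, *hsp90aa1.1*, *hsp90ab1*, *hspd1* and *dnaja2b*. Over all genes, the number called higher was then 739 of 20480, against 71 of 19914 with all samples.

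Replicate 2 was the low one of tg(*hsp70l:msgn1*) for constitutive folding genes. *hspa8*, the constitutive cytosolic HSP70, was at 5645, 3046 and 6420 CPM in tg(*hsp70l:msgn1*) against 3211, 3222 and 3092 CPM in wild type. Replicates 1 and 3 were above all wild-type samples and replicate 2 was below them, and the log2 fold change of 0.67 (SE 0.23, adjusted p = 0.259) became 0.92 (adjusted p = 0.00813) without replicate 2. Over the alternatives this adjusted p lay between 0.00813 and 0.796. The cytosolic chaperonin TRiC and prefoldin genes, which summed to 9826, 5797 and 8969 CPM in tg(*hsp70l:msgn1*) against 6020, 6120 and 5153 CPM in wild type, were also lowest in replicate 2, although its sum lay within the range of wild type. TMM scaling factors were 0.808 and 0.867 in tg(*hsp70l:msgn1*) replicates 1 and 3 and between 0.9802 and 1.14 in the other 7 samples, and their part in these values was not tested.

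When the lines were compared directly, 9 of 82 genes were higher in tg(*hsp70l:tbx16*) than in tg(*hsp70l:msgn1*) (11%) and 21 were lower (25.6%), whereas among all genes 18.5% were called higher and 19.8% lower. The median log2 fold change was -0.27 over the 82 genes and 0.05 over all genes. Under scaling by library size alone, which put the median of all genes at 0.38, 19 were higher and 11 lower, and 2 of the 19 were not J-domain genes. With TMM scaling, all 9 that were higher were J-domain genes (*dnajb4*, *dnajb14*, *dnajc4*, *dnajc5gb*, *dnajc7*, *dnajc11b*, *dnajc12*, *dnajc16* and *dnajc27*). Their number was 3 without tg(*hsp70l:tbx16*) replicate 2 or tg(*hsp70l:msgn1*) replicate 1 and 4 without tg(*hsp70l:msgn1*) replicate 3. Of the 21 that were lower, 9 were heat-shock genes outside the J-domain families and 12 were J-domain genes. Of the 49 J-domain genes tested, 18.4% were thus higher and 24.5% lower, against 18.5% and 19.8% of all genes. Only 9 of 20 alternatives kept the call of *hsp90ab1*, which was lower by 0.60 (SE 0.20, adjusted p = 0.0349).

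The mitochondrial chaperonin was called in this comparison. *hspd1* was at 577, 627 and 513 CPM in tg(*hsp70l:tbx16*) against 1195, 705 and 1118 CPM in tg(*hsp70l:msgn1*) (log2 fold change -0.81, SE 0.18, adjusted p = 0.00682). *hspe1* was at 249, 279 and 272 CPM in tg(*hsp70l:tbx16*) against 548, 335 and 350 CPM in tg(*hsp70l:msgn1*) (-0.62, SE 0.19, adjusted p = 0.0252). Both genes were lower in all 3 tg(*hsp70l:tbx16*) samples than in any tg(*hsp70l:msgn1*) sample. The call of *hspe1* was lost in 7 of 20 alternatives, with an adjusted p up to 0.156, among them library size alone and the omission of any tg(*hsp70l:tbx16*) sample or of tg(*hsp70l:msgn1*) replicate 1. *hspa9* differed by -1.13 (SE 0.16, adjusted p = 0.00057), *hspa14* by -0.82 (SE 0.14, adjusted p = 0.00149) and *dnajc2* by -1.02 (SE 0.11, adjusted p = 0.00011).

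Some members were called between the lines but not against wild type, and those described next were chosen after their values were seen. *dnajc7*, a J-domain protein that links HSP70 and HSP90, was at 148, 152 and 138 CPM in tg(*hsp70l:tbx16*) against 115, 119 and 117 CPM in tg(*hsp70l:msgn1*) (log2 fold change 0.31, SE 0.09, adjusted p = 0.0199). *dnajc27* was at 14.3, 15.1 and 13.3 CPM in tg(*hsp70l:tbx16*) against 9.07, 7.87 and 10.2 CPM in tg(*hsp70l:msgn1*) (0.66, SE 0.15, adjusted p = 0.00666). Neither gene overlapped between the lines. Wild type was at 126 to 143 CPM for *dnajc7*, overlapping tg(*hsp70l:tbx16*), and at 9.90 to 11.7 CPM for *dnajc27*, overlapping tg(*hsp70l:msgn1*). *dnaja3a*, a mitochondrial partner of mortalin, was at 42.7, 42.8 and 37.2 CPM in tg(*hsp70l:tbx16*) against 55.0, 52.0 and 48.4 CPM in tg(*hsp70l:msgn1*) (-0.34, SE 0.10, adjusted p = 0.0235). *hspa4a*, an HSP110 exchange factor, was at 59.8, 63.2 and 44.9 CPM in tg(*hsp70l:tbx16*) against 93.7, 59.1 and 130 CPM in tg(*hsp70l:msgn1*) (-0.75, SE 0.24, adjusted p = 0.0318), and here the groups overlapped.

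Cochaperones whose names the rule does not match were examined as further lists. Of 30 HSP90 and HSP70 cochaperones, 3 rose (10%) and 4 fell (13.3%) in tg(*hsp70l:tbx16*) against wild type, near the 15% higher and 15.7% lower among all genes, and the median log2 fold change was 0.06 against 0.03 over all genes. *fkbp5*, an HSP90 cochaperone of the steroid receptor cycle, was at 10.6, 13.2 and 11.7 CPM in tg(*hsp70l:tbx16*) against 4.49, 4.58 and 4.62 CPM in wild type (1.38, SE 0.15, adjusted p = 0.000173). *bag1* and *aip* rose by 0.40 (SE 0.11, adjusted p = 0.019) and 0.45 (SE 0.11, adjusted p = 0.0117). The 4 that fell were *grpel1*, *tomm34*, *ttc4* and *unc45b*. *unc45b*, the HSP90 cochaperone that folds myosin and also a gene of the muscle list, was at 381, 388 and 417 CPM in tg(*hsp70l:tbx16*) against 591, 548 and 626 CPM in wild type (-0.57, SE 0.17, adjusted p = 0.0308). Against wild type in tg(*hsp70l:msgn1*), 0 of 30 were called and 9 had an unadjusted p under 0.05, against 2811 of all 19914 genes. Between the lines, 2 were higher (6.67%) and 10 lower (33.3%) in tg(*hsp70l:tbx16*), against 18.5% and 19.8% of all genes. With library size alone the counts were 7 higher and 3 lower in tg(*hsp70l:tbx16*) against wild type, and 10 higher and 4 lower between the lines.

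The TRiC and prefoldin genes encode complexes that fold actin and tubulin. Of 14 genes, 0 rose and 4 (*cct5*, *pfdn2*, *pfdn4* and *pfdn6*) fell in tg(*hsp70l:tbx16*) against wild type (28.6% lower, against 15.7% of all genes), with a median log2 fold change of -0.30, and 10 did not pass the test. In tg(*hsp70l:msgn1*) against wild type 0 were called, although all 14 log2 fold changes were positive, with a median of 0.39. Of these, 10 had an unadjusted p under 0.05, against 2811 of all 19914 genes. Between the lines, 13 of 14 were lower in tg(*hsp70l:tbx16*) (92.9%, against 19.8% of all genes), with a median of -0.70. With library size alone, 2 fell and 3 of 14 had a positive log2 fold change in tg(*hsp70l:tbx16*) against wild type, 13 of 14 were positive in tg(*hsp70l:msgn1*) over wild type, and 8 were lower between the lines. *cct5*, a TRiC subunit, was at 262, 282 and 295 CPM in tg(*hsp70l:tbx16*), at 678, 438 and 654 CPM in tg(*hsp70l:msgn1*) and at 477, 455 and 409 CPM in wild type.

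Of 16 genes of ER folding and the unfolded protein response, 0 rose and 2 fell (12.5%, against 15.7% of all genes) in tg(*hsp70l:tbx16*) against wild type. None of the 16 was called in tg(*hsp70l:msgn1*) against wild type, where 3 had an unadjusted p under 0.05, against 2811 of all 19914 genes. Between the lines, 1 was higher (6.25%) and 6 were lower (37.5%) in tg(*hsp70l:tbx16*), against 18.5% and 19.8% of all genes, and with library size alone 1 was higher and 1 lower. *xbp1*, a transcription factor of the unfolded protein response, was at 126, 126 and 139 CPM in tg(*hsp70l:tbx16*) against 273, 332 and 269 CPM in wild type (log2 fold change -1.16, SE 0.19, adjusted p = 0.00166). The other was *atf4b* (-0.76, SE 0.13, adjusted p = 0.00154). None of the 9 members that were assigned to the ER lumen here was called in any comparison. The called gene *dnajb14*, of the ER membrane, is not among these 9. At an unadjusted p under 0.05 there was 1 of 9 for tg(*hsp70l:tbx16*) against wild type (8341 of all 19914 genes). There were 2 for tg(*hsp70l:msgn1*) against wild type (2811 of all genes) and 1 between the lines (9615 of all genes). Of 8 tested genes known to respond to heat or other proteotoxic stress, 0 rose in tg(*hsp70l:tbx16*) against wild type. *atf3* and *mt2* fell (25%, against 15.7% of all genes). Between the lines, 2 of the 8 were higher (25%) and 1 lower (12.5%) in tg(*hsp70l:tbx16*), against 18.5% and 19.8% of all genes. The higher ones were *gadd45ba* and *cryabb*, and the lower one was *hikeshi*. *cryabb* lay near the floor, at 0.702, 0.554 and 0.222 CPM in tg(*hsp70l:tbx16*) and at 0, 0 and 0 CPM in tg(*hsp70l:msgn1*). *mt2* was at 3.14, 0.661 and 0.710 CPM in tg(*hsp70l:tbx16*) against 5.74, 6.28 and 4.21 CPM in wild type (-1.85, SE 0.63, adjusted p = 0.0467). *atf3* was at 5.07, 6.52 and 9.68 CPM in tg(*hsp70l:tbx16*) against 18.2, 17.1 and 14.3 CPM in wild type (-1.22, SE 0.25, adjusted p = 0.00472). All 3 comparisons draw on shared samples, the wild-type ones for both lines, so their values are not independent of each other.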

How the data were processed

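The authors trimmed reads with Trim Galore 0.5.0, aligned them to GRCz11 with HISAT2 2.1.0 and used StringTie for quantification. The deposited values are whole-number counts of reads for each gene, without any scaling for depth. The step to whole numbers and the use of strand are not given in the sources used here. The 64 rows with a blank gene name (up to 0.101% of the counts) were left out. All 9 samples were fitted together in edgeR 4.0.16 (R 4.3.3) with 1 coefficient per genotype, TMM factors, filterByExpr and the quasi-likelihood F-test, with Benjamini-Hochberg adjustment over 19914 genes and a threshold of 0.05. Differences between replicates exceeded counting error in every pair of a genotype, so no library appeared to be deposited more than once, and p-values measure the spread between pooled samples. The fit was tested on simulated data.

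Alternatives were RLE size factors, library size alone, DESeq2 1.42.0, no filter, at least 10 counts in every sample, only the groups compared, a replicate block, leaving out each sample, an adjusted p of 0.01, a 1.5-fold change, summing repeated names and, chosen after seeing the data, replicates 1 and 2 only. Members and lists were chosen with earlier results of these data known. Genes given in full are the inducible HSP70 genes, the HSP90 genes, *hsf1*, *hsf2*, *hspa8*, *hspa5*, *hspd1*, *hspe1*, *hsph1*, *hspb1* and *dnajb1b*, and in each class up to 4 risers and 4 fallers, by size of the fold change, out of the genes called in tg(*hsp70l:tbx16*) against wild type. Other members are named after their values were seen. No promoter or protein sequence is shown, since none was used here.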

Additional observations from a re-analysis of the deposited data

How the results depend on the processing

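Against 5 genes that rose in tg(*hsp70l:tbx16*) over wild type, there were 8 with library size alone, 8 with DESeq2, 3 with a replicate block, 3 with a 1.5-fold change, 0 at an adjusted p under 0.01 and 1 to 6 when samples were left out. Against 16 that fell, there were 24 with only the groups compared, 20 with DESeq2, 8 at 0.01, 7 with replicates 1 and 2 only and 9 to 18 when samples were left out. In tg(*hsp70l:msgn1*) over wild type, DESeq2 called 1 gene higher, and leaving out samples gave 0 to 6. Between the lines, against 9 higher there were 19 with library size alone, 4 with only the groups compared, 5 with a replicate block, 3 at 0.01 and 3 to 9 when samples were left out, and against 21 lower there were 11 with library size alone, 13 at 0.01 and 11 with replicates 1 and 2 only. With replicates 1 and 2 only, *hsp70.2* (1.38) and *hsp70.3* (1.44) changed sign to positive in tg(*hsp70l:tbx16*) over wild type, and *hsp70.1* (1.60) and *hsp70.3* (1.34) over tg(*hsp70l:msgn1*). None of these was called in the main fit, and replicate 3 was left out with the values of these genes known. The change of sign therefore cannot be read as a test. Its cause was not tested. Among other calls in tg(*hsp70l:tbx16*) over wild type, those of *dnajb14*, *dnajc28* and *dnaja2b* were lost in 5 of 20 alternatives, that of *dnajc4* in 3 and those of *dnaja2a* and *dnajc21* in 1.

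Library size alone moved the median log2 fold change of all genes to 0.18 in tg(*hsp70l:tbx16*), -0.20 in tg(*hsp70l:msgn1*) and 0.38 between the lines, and the share of called genes that were lower to 37%, 77% and 23.4%, from 51.1%, 58.2% and 51.6%. Equal replicate numbers did not always go together, by the correlation of deviations from group means. It was 0.16, 0.00 and 0.55 for equal numbers of tg(*hsp70l:msgn1*) and wild type, the last being the highest of all pairs. However, replicate 1 of tg(*hsp70l:msgn1*) correlated best with wild-type replicate 2 (0.47). Deviations within a genotype cancel out, so these correlations depend on each other and cannot show whether equal numbers were paired. Whether samples of equal number shared a clutch is not given in the sources used here. With the replicate block the calls were 3 higher and 14 lower in tg(*hsp70l:tbx16*) and 0 in tg(*hsp70l:msgn1*). Genes under about 100 counts, such as *hspb9* and *dnajb5*, have limited precision at this depth.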
